A study of Mus musculus with 6 samples.

Results

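The transcripts of 58 genes of the cell cycle and DNA replication were compared between macrophages labelled as Xbp1 knockout and floxed control macrophages. All 58 names were found among the 54660 rows of the deposited gene table. By their textbook roles, 17 act in DNA replication during S phase, 27 in mitosis and the approach to it, and 14 in the control of G1 and entry into S phase. Bone marrow-derived macrophages, which are grown in culture from marrow, came from C57BL/6 mice aged 6 to 8 weeks. The Xbp1M-KO libraries (KO, n = 3) and the Xbp1FL/FL libraries (WT, n = 3) were all made after 6 h of lipopolysaccharide (LPS), a bacterial cell wall component. LPS is thus shared by both genotypes, and unstimulated cells were not analysed here. The labels name neither the Cre driver nor the deleted exons. They also do not say whether replicates are different animals, so the spread behind each p-value may be technical.

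Cells that commit to division first raise D-type cyclins, which with CDK4 and CDK6 inactivate the retinoblastoma family of proteins and release E2F transcription factors. E2F factors then switch on the genes of origin firing, the MCM helicase and nucleotide supply. The genes of mitosis come later, under MYBL2, FOXM1 and the MuvB proteins. Macrophages in culture divide in response to the growth factor M-CSF and stop dividing when activated with LPS.

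Library totals lay between 31976748 and 42448058 counts. Xbp1 itself was at 66.3, 65.5 and 65.6 CPM (counts scaled to library size after TMM normalization) in KO libraries, against 91.2, 88.2 and 87.5 CPM in WT libraries. The groups did not overlap, but the fall was partial (log2 fold change -0.44, SE 0.0363), and the counts cover the whole gene. Macrophage markers summed to 29310 to 29983 CPM in KO and to 47801 to 49572 CPM in WT, with a median log2 fold change of -0.18. Among 15 tested members 9 were called lower and 5 higher, by the test described below. The shares of all tested genes were 29.8% called lower and 31.5% called higher. In bulk RNA, fewer dividing cells and less RNA per dividing cell cannot be told apart.

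Mitotic transcripts were lower in KO macrophages almost throughout, replication transcripts were lower with a split inside the MCM helicase, and G1 control genes moved in both directions. A gene was called at an adjusted p under 0.05 in edgeR's quasi-likelihood test over 13080 genes. Of all tested genes 29.8% were called lower and 31.5% higher in KO, which together make 61.3%, so a call alone is common in these data. Of 26 tested mitotic genes 20 (76.9%) fell and 1 rose, with a median log2 fold change of -0.87. Of 17 replication genes 10 (58.8%) fell and 2 rose, with a median of -0.68. Of 14 G1 control genes 5 (35.7%) fell and 4 (28.6%) rose, shares near those of all tested genes, with a median of -0.18. The median over all tested genes was -0.0016. With a change of at least 1.5-fold also required, 17 mitotic, 9 replication and 2 G1 control genes were called lower, against 11.6% of all tested genes. Under that requirement 0 mitotic, 1 replication and 2 G1 control genes were called higher, against 12.3% of all tested genes. Cenpf did not pass the filter on low counts. Cenpe, Pola1 and Bub1 passed it in every WT library but not in every KO library, and without these 3 genes 19 of 24 mitotic and 10 of 16 replication genes fell. Cenpe is also among the 17 mitotic genes called lower with a change of at least 1.5-fold. Whether mitotic and replication genes differ in their change was not tested. In an alternative fit, each library's smooth trend on GC content and gene length was removed, and values from it stand beside genes whose call, direction or size it moves.

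**Figure D1:**
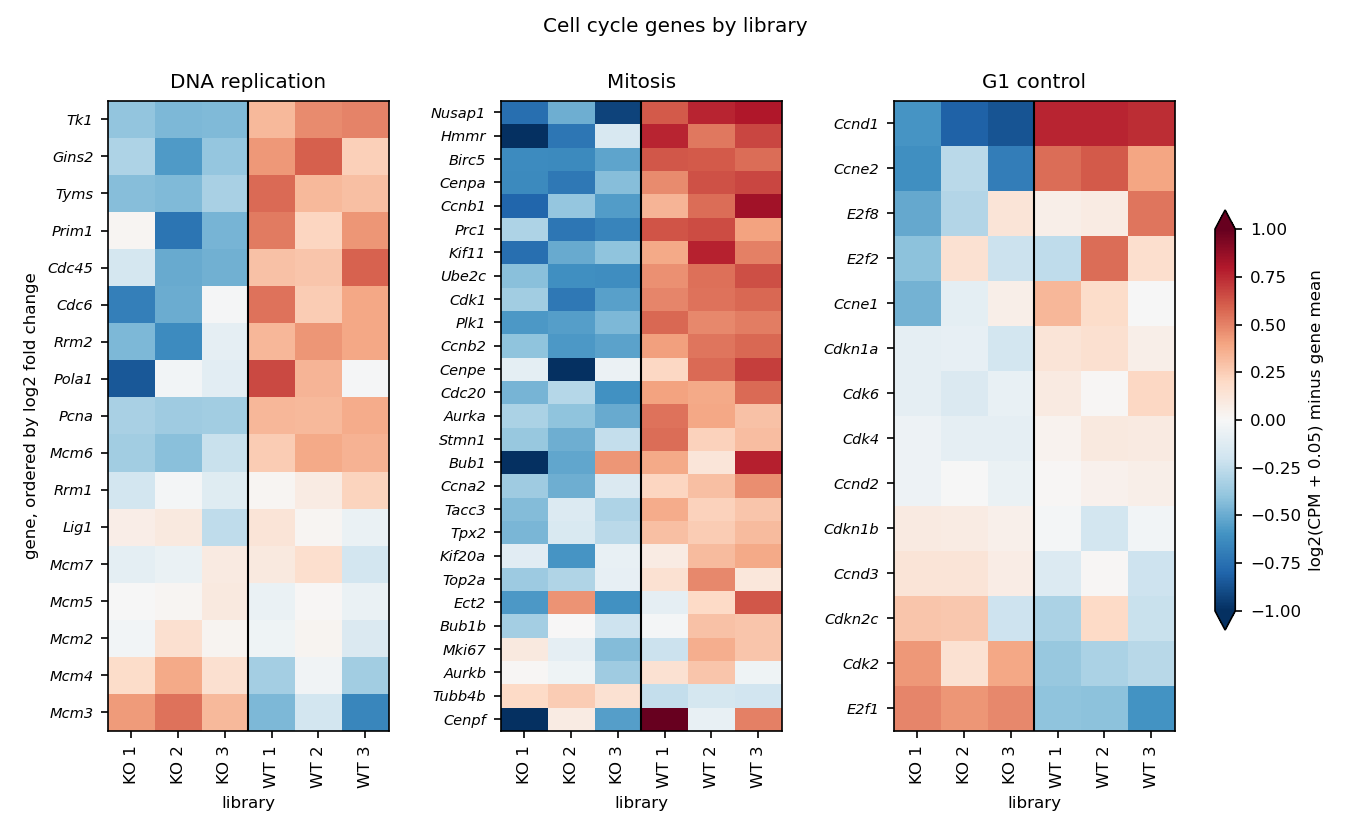
Colour shows log2(CPM + 0.05) minus the gene's mean over the 6 libraries, with genes in rows by role and libraries in columns, KO left and WT right of the black line; values beyond 1 in either direction share the end colours. Most replication and mitotic rows are blue in all 3 KO libraries and red in all 3 WT libraries, while Mcm3, Mcm4 and Tubb4b show the reverse.

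The KO libraries were alike in this. The median mitotic gene lay at -0.86, -0.92 and -0.85 in KO replicates 1 to 3, as a log2 ratio to the WT mean, and at -0.08, 0.01 and 0.05 in WT replicates 1 to 3. The median replication gene lay at -0.56, -0.70 and -0.46 in KO, and at -0.01, 0.04 and -0.03 in WT. All KO medians lay below all WT medians in both sets. All KO values lay below all WT values for 20 of 26 mitotic and 11 of 17 replication genes, against 32.3% of all tested genes. These counts include Cenpe and Pola1, which had passed the filter in every WT but not every KO library. Levels per gene length were low for most of these genes, and Pcna (56.6 FPKM in KO and 90.7 FPKM in WT) and Tubb4b (57.0 FPKM in KO and 43.0 FPKM in WT) were the highest of the replication and mitotic genes. Cdk1, the mitotic kinase, averaged 1.68 FPKM in KO and 3.51 FPKM in WT. FPKM here are the authors' deposited values, which are scaled for gene length and library size.

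Markers of other cell types that can be present in marrow cultures moved with genotype as well, and their part in these results was not tested. The counts below stand against 29.8% of all tested genes called lower and 31.5% called higher. Stromal markers summed to 354 to 364 CPM in KO and to 604 to 617 CPM in WT, with 7 of 12 tested members lower and 2 higher. Neutrophil and granule markers summed to 759 to 789 CPM in KO and to 508 to 536 CPM in WT, with 9 of 10 tested members higher and 1 lower, although Ly6g averaged 0.0376 CPM in KO and 0.0832 CPM in WT. Progenitor markers summed to 3.88 to 4.19 CPM in KO and to 3.84 to 4.65 CPM in WT over 10 genes, with Mycn at 0 counts in all libraries. Among the 5 tested members 1 was higher and 1 lower. The lower one had passed the filter in every WT but not every KO library. Lymphoid markers summed to 2.62 to 2.91 CPM in KO and to 4.10 to 5.199 CPM in WT, with Ncr1 at 0 counts in all libraries and Lck, the only tested member, lower. Of the erythroid markers only Tfrc, which dividing cells also express, was tested, at 14.0 CPM in KO and 11.5 CPM in WT, and it was called higher, while Epor was at 0 counts in all libraries.

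Replication genes moved in both directions. Some of their promoters are shown because replication genes are classical E2F targets. Printed are 250 bases before and 30 after the start in RefSeq (GRCm38.p6), with capitals marking matches to an E2F site (TTTCCCGC or TTTGGCGC) or a CCAAT box, on either strand. Tk1 and Mcm3 had the largest called changes among replication genes in the promoter table, and Mcm6 was added after its letters were seen.
Tk1, chr11:117825985-117826264, minus strand: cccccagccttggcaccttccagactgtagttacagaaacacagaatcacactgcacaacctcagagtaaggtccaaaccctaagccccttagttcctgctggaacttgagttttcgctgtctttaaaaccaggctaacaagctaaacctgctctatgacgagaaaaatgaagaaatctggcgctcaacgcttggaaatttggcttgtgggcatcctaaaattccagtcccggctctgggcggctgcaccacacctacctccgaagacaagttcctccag
Mcm3, chr1:20820283-20820562, minus strand: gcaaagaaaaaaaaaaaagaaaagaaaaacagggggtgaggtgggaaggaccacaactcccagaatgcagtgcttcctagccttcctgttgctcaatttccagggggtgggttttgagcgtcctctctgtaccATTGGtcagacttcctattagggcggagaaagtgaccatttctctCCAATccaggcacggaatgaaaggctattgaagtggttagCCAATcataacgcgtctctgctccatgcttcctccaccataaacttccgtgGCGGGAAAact
Mcm6, chr1:128359676-128359955, minus strand: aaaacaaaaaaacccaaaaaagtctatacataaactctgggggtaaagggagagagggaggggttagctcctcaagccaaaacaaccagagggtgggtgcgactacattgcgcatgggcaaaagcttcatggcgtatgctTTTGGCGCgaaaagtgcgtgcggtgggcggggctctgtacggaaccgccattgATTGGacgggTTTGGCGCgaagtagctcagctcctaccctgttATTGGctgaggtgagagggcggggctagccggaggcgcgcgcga
In the full windows, which run 50 bases past the start, 6 of 18 promoters of replication genes (33.3%) held an E2F site of these letters, against 1.56% of all 32851 promoters. A CCAAT box, the binding site of NF-Y, was in 12 of 18 (66.7%), against 37.4% of all promoters. E2F letters were found in Mcm6 and Cdc6, which fell, in Mcm3, which rose, and in Mcm5, Mcm7 and Pola1, which were not called. None of the searched letters lies in the Tk1 window, whose start may not be the one used in these cells.

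Tk1 encodes thymidine kinase, which salvages thymidine. It was at 4.18, 4.02 and 4.05 CPM in KO, against 6.91, 7.69 and 7.80 CPM in WT (-0.87 on the log2 scale, SE 0.103, edgeR adjusted p = 1.42e-06). Every KO library lay below every WT library. Tyms, the thymidylate synthase gene, was at 5.68, 5.61 and 6.09 CPM in KO and at 11.4, 9.59 and 9.44 CPM in WT (-0.81, SE 0.0958, edgeR adjusted p = 1.56e-06). Rrm2, the regulated subunit of ribonucleotide reductase, fell to 3.45 ± 0.683 CPM in KO, against 5.89 ± 0.226 CPM in WT (SD, n = 3 each). Its partner Rrm1 differed less, with 9.26 ± 0.528 CPM in KO and 10.8 ± 0.797 CPM in WT (-0.22, edgeR adjusted p = 0.0283). The Rrm1 call was lost without KO replicate 1 (-0.18, edgeR adjusted p = 0.113), KO replicate 3 (-0.21, 0.0767) or WT replicate 3 (-0.16, 0.125). It was also lost with library totals as the scaling (-0.10, edgeR adjusted p = 0.286) and without the expression filter (-0.19, 0.0756). DESeq2 did not call Rrm1 either (-0.22, DESeq2 adjusted p = 0.111).

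Gins2, a subunit of the GINS complex that joins the active helicase, was at 12.3, 10.3 and 11.6 CPM in KO, against 20.6, 23.0 and 17.98 CPM in WT (-0.85, SE 0.0885, edgeR adjusted p = 3.26e-07). The groups did not overlap. Of its exon bases 67.3% also lie in exons of Gse1 on the opposite strand, which changed by 0.70, and the sources used here do not say whether counting used strand. With the GC and length trend removed Gse1 was at 0.19 and not called (edgeR adjusted p = 0.0803), and Gins2 was at -1.10. Cdc45, which completes the active helicase, fell by 0.78 on the log2 scale to 2.42 ± 0.326 CPM in KO, against 4.16 ± 0.529 CPM in WT. Cdc6, which loads the helicase onto origins, fell by 0.78, and Prim1, the primase subunit, by 0.79. Pola1, the catalytic subunit of DNA polymerase alpha, had 7 to 17 counts in KO libraries and 13 to 25 in WT libraries and was not called (-0.70, SE 0.376, edgeR adjusted p = 0.121). Lig1, the ligase that joins Okazaki fragments, was not called either (-0.06, SE 0.116), but it was called with the GC and length trend removed (-0.33, edgeR adjusted p = 0.0186).

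Pcna, the sliding clamp of DNA polymerases (ENSMUSG00000027342, mm10 chr2:132249162-132253314), was the most abundant replication transcript per length. It was at 138, 135 and 136 CPM in KO, against 217, 217 and 224 CPM in WT. The fall of 0.68 on the log2 scale (SE 0.0331, edgeR adjusted p = 3.94e-11) was large against the spread between libraries, and it was 0.44 with the GC and length trend removed. A copy with near-identical sequence, Pcna-ps2, had a mean of 39.0 counts, while Pcna had 4600 to 7862.

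The genes of the MCM helicase, a ring in which Mcm2 to Mcm7 occur together, did not move together. Among these 6 genes 1 (16.7%) was called lower and 2 (33.3%) higher, against 29.8% and 31.5% of all tested genes. Mcm6 was at 22.1, 21.1 and 24.1 CPM in KO, against 33.5, 36.7 and 35.8 CPM in WT (-0.65, SE 0.0591, edgeR adjusted p = 6.40e-08). Mcm3 (mm10 chr1:20802968-20820312) was at 15.01, 16.3 and 14.02 CPM in KO, against 8.16, 9.83 and 7.10 CPM in WT (0.85, SE 0.0989, edgeR adjusted p = 1.22e-06). All KO libraries lay below WT for Mcm6 and above WT for Mcm3. Mcm4 also rose, to 3.30 ± 0.292 CPM in KO, against 2.36 ± 0.308 CPM in WT (0.49, edgeR adjusted p = 0.0123). Without KO replicate 2 the Mcm4 call was lost (0.42, edgeR adjusted p = 0.0542). Mcm2, Mcm5 and Mcm7 overlapped between genotypes and were not called, at 0.11 (SE 0.100), 0.08 (SE 0.0650) and -0.06 (SE 0.109). With library totals as the scaling Mcm5 was called at 0.20 (edgeR adjusted p = 0.0149). With the GC and length trend removed Mcm7 was called at -0.32 (edgeR adjusted p = 0.0160), and the signs for Mcm2 and Mcm5 turned negative without a call.

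**Figure D2:**
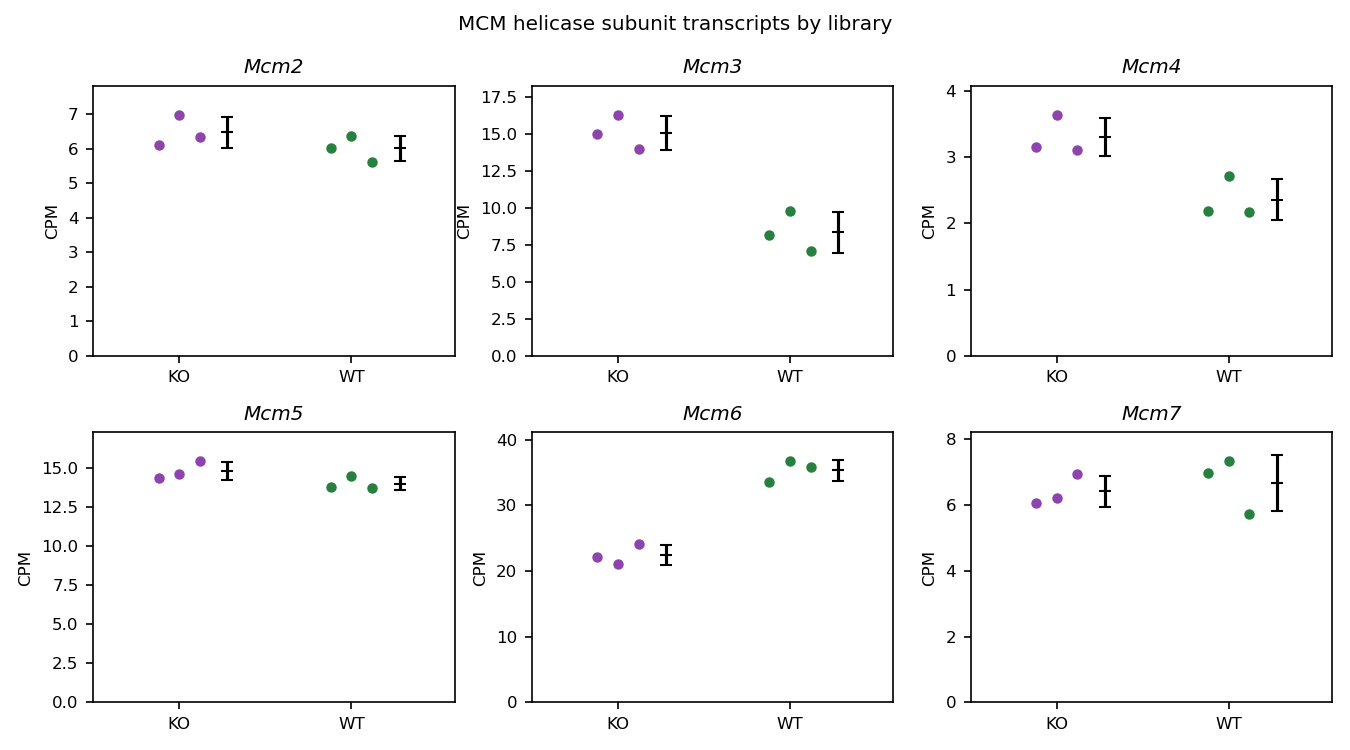
Points are TMM-scaled CPM of single libraries for the MCM helicase genes, KO left and WT right, each with mean and SD (n = 3) beside it. Mcm3 and Mcm4 lie higher in all KO libraries, Mcm6 lies lower in all KO libraries, and the other MCM genes overlap.

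The mitotic genes moved down as a broad set that includes cyclins, kinases, spindle and kinetochore genes. Promoters of mitotic genes are shown because the genes share a promoter element, the CHR (cell cycle genes homology region), that is bound by MuvB proteins. Capitals mark the CHR (TTTGAA or TTCGAA) and the CCAAT box on either strand, in windows as above. In the Ube2c window 2 CCAAT boxes on opposite strands overlap. Nusap1 and Hmmr had the largest called changes in the promoter table, and Cdk1 and Ube2c were added after their letters were seen.
Nusap1, chr2:119618048-119618327, plus strand: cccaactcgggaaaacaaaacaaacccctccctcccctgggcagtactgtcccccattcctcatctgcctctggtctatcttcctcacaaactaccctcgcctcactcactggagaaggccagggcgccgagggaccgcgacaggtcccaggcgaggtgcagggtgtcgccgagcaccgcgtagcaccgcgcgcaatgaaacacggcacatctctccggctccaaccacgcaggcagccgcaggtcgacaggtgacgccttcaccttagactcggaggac
Hmmr, chr11:40733408-40733687, minus strand: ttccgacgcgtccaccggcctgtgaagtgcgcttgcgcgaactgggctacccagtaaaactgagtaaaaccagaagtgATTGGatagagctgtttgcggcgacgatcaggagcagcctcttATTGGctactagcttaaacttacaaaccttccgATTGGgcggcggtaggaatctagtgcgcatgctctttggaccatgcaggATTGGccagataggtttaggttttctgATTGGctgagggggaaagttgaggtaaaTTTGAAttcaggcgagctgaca
Cdk1, chr10:69352883-69353162, minus strand: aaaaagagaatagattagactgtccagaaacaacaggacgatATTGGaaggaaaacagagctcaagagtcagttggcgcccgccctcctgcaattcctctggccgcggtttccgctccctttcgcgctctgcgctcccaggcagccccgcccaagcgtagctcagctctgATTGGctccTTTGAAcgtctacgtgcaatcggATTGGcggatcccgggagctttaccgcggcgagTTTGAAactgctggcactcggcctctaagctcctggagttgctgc
Ube2c, chr2:164769679-164769958, plus strand: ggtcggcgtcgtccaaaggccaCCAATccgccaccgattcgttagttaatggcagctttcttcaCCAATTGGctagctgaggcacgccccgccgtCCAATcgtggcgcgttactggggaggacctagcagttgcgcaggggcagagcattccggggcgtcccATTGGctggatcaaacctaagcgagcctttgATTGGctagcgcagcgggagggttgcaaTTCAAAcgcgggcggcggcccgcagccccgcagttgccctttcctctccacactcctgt
A CHR of these letters was in 19 of 24 promoters of mitotic genes (79.2%), against 19.2% of all promoters and 3 of 18 (16.7%) of the replication genes. A CCAAT box was in 21 of 24 (87.5%), and an E2F site in 0 of 24. In Cdk1 the CHR begins at bases -71 and -15 from the start, in Ube2c at -29 and in Hmmr at base 9 of the transcript. Promoters of mitotic genes that were not called held the CHR in 5 of 5 cases, and those that fell in 12 of 17. Tubb4b, which rose, holds it as well. The Nusap1 window holds none of these letters.

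Cdk1 (mm10 chr10:69335146-69352938), whose kinase drives entry into mitosis, was at 9.41, 7.31 and 8.25 CPM in KO, against 16.8, 17.5 and 17.9 CPM in WT (-1.07 on the log2 scale, SE 0.0832, edgeR adjusted p = 1.02e-08). The KO mean was 0.477 times the WT mean, and the groups did not overlap. Its cyclin partners Ccnb1 and Ccnb2 fell by 1.17 and 1.03 on the log2 scale. Ccna2, which acts in S phase and G2, fell by 0.65. Ccnb1 has 3 near-identical copies with mean counts of 1.3 to 8.7.

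Nusap1, a microtubule-binding protein of the spindle, fell as well. It was at 0.902, 1.09 and 0.796 CPM in KO, against 2.41, 2.68 and 2.75 CPM in WT (-1.49, SE 0.197, edgeR adjusted p = 5.21e-06). Hmmr, which helps assemble the spindle, was at 0.481, 0.629 and 0.955 CPM in KO, against 1.85, 1.57 and 1.73 CPM in WT (-1.28, SE 0.259, edgeR adjusted p = 3.96e-04). Both are low transcripts, with 16 to 42 counts for Hmmr in KO libraries. Prc1, which bundles the microtubules of the central spindle, fell by 1.16 and Kif11, the motor that separates spindle poles, by 1.16. Tpx2, a spindle assembly factor, fell by 0.57 and was at 16.0 ± 1.68 CPM in KO, against 23.9 ± 0.518 CPM in WT. Tacc3 and the microtubule destabiliser Stmn1 fell by 0.59 and 0.74.

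Birc5, which encodes survivin of the chromosomal passenger complex, was at 2.89, 2.87 and 3.09 CPM in KO, against 6.94, 6.91 and 6.62 CPM in WT (-1.21, SE 0.111, edgeR adjusted p = 7.51e-08). Cenpa, the centromeric histone H3 variant, was at 3.79, 3.58 and 4.39 CPM in KO, against 8.21, 9.20 and 9.44 CPM in WT (-1.18, SE 0.108, edgeR adjusted p = 6.68e-08). The ratios of KO to WT means were 0.432 for Birc5 and 0.438 for Cenpa. Aurkb, the kinase of the same complex as survivin, was not called (-0.28, SE 0.200, edgeR adjusted p = 0.244). Its levels were 1.59, 1.53 and 1.23 CPM in KO, against 1.77, 1.93 and 1.54 CPM in WT, and the groups overlapped.

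Ube2c, the ubiquitin-conjugating enzyme of the anaphase-promoting complex, fell to 5.39 ± 0.435 CPM in KO, against 11.6 ± 0.758 CPM in WT (-1.11, SE 0.0908). Cdc20, an activator of that complex, fell by 0.91, and the kinases Plk1 and Aurka by 1.05 and 0.83. Spindle checkpoint genes were less clear. Bub1b was not called (-0.37, edgeR adjusted p = 0.0803), and without WT replicate 1 it was (-0.47, edgeR adjusted p = 0.0444). With the GC and length trend removed Bub1b was called at -0.52 (edgeR adjusted p = 0.0187). Bub1 had 9, 17 and 42 counts in KO libraries, against 33, 25 and 38 in WT libraries, so KO replicate 3 stood above the other KO libraries. Bub1 was not called with it (-0.71, edgeR adjusted p = 0.110) and was called without it (-1.36, edgeR adjusted p = 0.00807). With the replicate number as a block Bub1 was called at -0.81 (edgeR adjusted p = 0.0445).

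The common proliferation marker Mki67 was not called. It was at 3.94, 3.45 and 2.70 CPM in KO, against 3.15, 4.73 and 4.45 CPM in WT (-0.30, SE 0.171, edgeR adjusted p = 0.148). WT replicate 1 lay within the KO range, and without it Mki67 was called at -0.46 (edgeR adjusted p = 0.0263). It was also called after removal of the GC and length trend (-0.48, edgeR adjusted p = 0.0227). Top2a, the topoisomerase that untangles sister chromatids, was at 2.71, 2.82 and 3.30 CPM in KO, against 3.87, 4.89 and 3.77 CPM in WT (-0.50, SE 0.146, edgeR adjusted p = 0.00730). Top2a was not called when WT replicate 2 was left out (-0.37, edgeR adjusted p = 0.0537).

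The other mitotic motors and kinetochore genes were low. Kif20a, the kinesin of cytokinesis, was called at -0.51 (edgeR adjusted p = 0.0241). Of its exon bases 29.3% also lie in exons of Cdc23 on the opposite strand, which had a mean of 273.3 counts. Such sharing is 19.7% for Cdk4 (with Tspan31, mean 4334.2 counts), 17.4% for Ccne2 (Ints8, 245.3) and 12.5% for Ccna2 (Exosc9, 342.0). The Kif20a call was lost without KO replicate 2 (-0.35, edgeR adjusted p = 0.118), WT replicate 2 (-0.48, 0.0640) or WT replicate 3 (-0.44, 0.0739). It was also lost with library totals as the scaling (-0.39, edgeR adjusted p = 0.0717) and in DESeq2 (-0.51, DESeq2 adjusted p = 0.0705). Cenpe, a kinetochore motor with 8 to 26 counts in KO and 26 to 32 in WT, was called at -0.93 (edgeR adjusted p = 0.0292). It lost the call without KO replicate 2 (-0.60, edgeR adjusted p = 0.146), WT replicate 2 (-0.89, 0.0710) or WT replicate 3 (-0.83, 0.0874). Cenpe also lost the call with library totals as the scaling (-0.82, edgeR adjusted p = 0.051) and in DESeq2 (-0.94, DESeq2 adjusted p = 0.078). Ect2, which triggers the cleavage furrow, was not called (-0.46, SE 0.355), and Cenpf had 3, 10 and 7 counts in KO, against 23, 8 and 12 in WT, and was not tested. Tubb4b, a general beta-tubulin that is not limited to dividing cells, was the only mitotic member that rose. It was at 119, 124 and 116 CPM in KO, against 88.1, 92.1 and 91.1 CPM in WT (0.40, SE 0.0376).

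**Figure D3:**
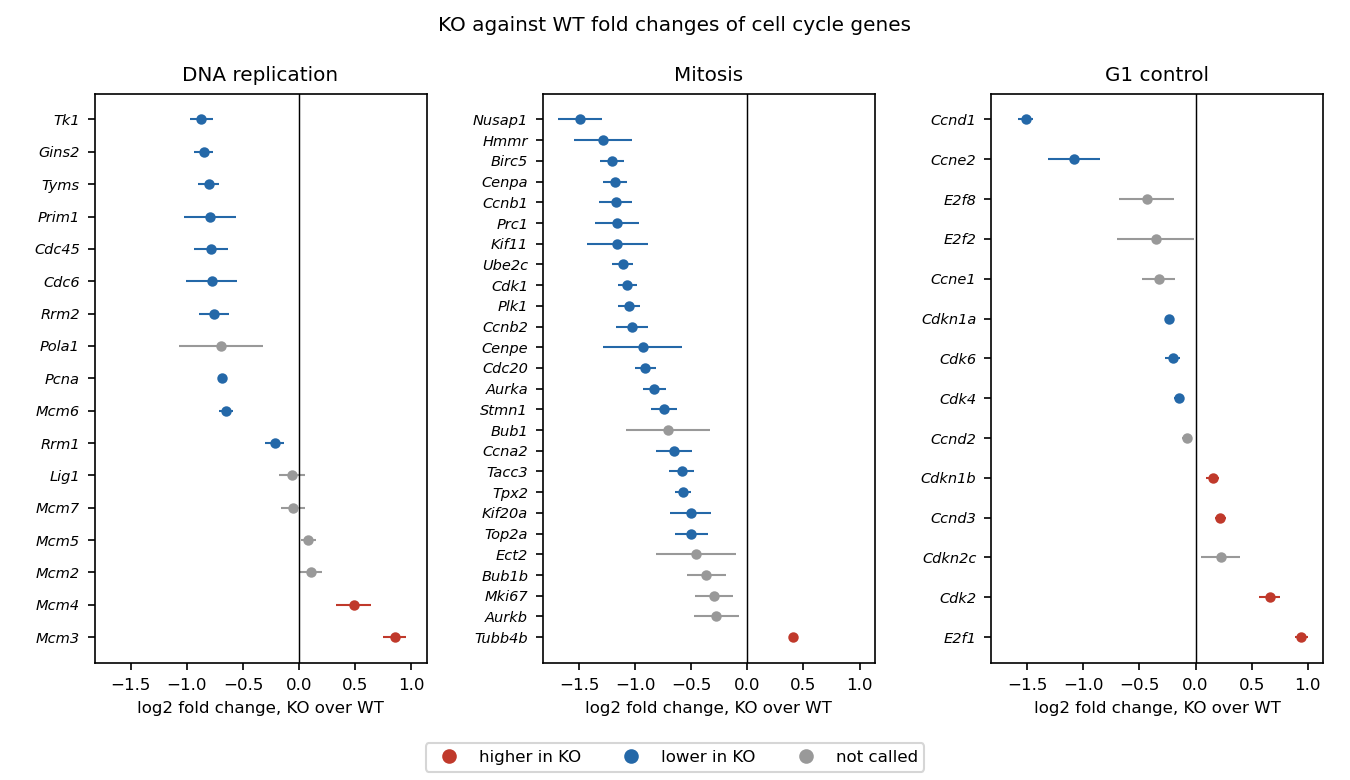
Points are log2 fold changes, KO over WT, from edgeR for the 57 tested genes by role, with bars of 1 SE, blue for genes called lower, red for genes called higher and grey for genes not called. Mitotic genes lie left of 0 down to -1.49 except Tubb4b at 0.40, while G1 control genes lie on both sides.

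Among the G1 control genes the D-type cyclins differed. Ccnd1 (ENSMUSG00000070348, mm10 chr7:144929931-144939925), which links growth factor signals to CDK4 and CDK6, was at 10.9, 9.36 and 9.02 CPM in KO, against 28.02, 28.01 and 27.48 CPM in WT. Ccnd1 fell by 1.52 on the log2 scale (SE 0.0710, edgeR adjusted p = 2.65e-11), with a ratio of KO to WT means of 0.351. Of its exon bases 23.4% also lie in exons of Oraov1 on the opposite strand, which changed by 0.04. With the GC and length trend removed Oraov1 was called at -0.30 (edgeR adjusted p = 1.53e-04), and Ccnd1 was at -1.71. Ccnd2 was at 36.1, 37.3 and 35.7 CPM in KO, against 37.7, 38.4 and 38.8 CPM in WT, and was not called (-0.08, SE 0.0442, edgeR adjusted p = 0.147). After removal of the GC and length trend it was called at -0.27 (edgeR adjusted p = 2.32e-05). Ccnd3 was at 61.6, 61.6 and 59.4 CPM in KO, against 51.3, 56.7 and 48.7 CPM in WT (0.22, SE 0.050, edgeR adjusted p = 0.00112). The direction for Ccnd3 turned to -0.26 (edgeR adjusted p = 6.22e-05) once that trend was removed. Per gene length, Ccnd1 averaged 2.06 FPKM in KO and 5.86 FPKM in WT, while Ccnd3 averaged 6.89 FPKM in KO and 5.91 FPKM in WT. By FPKM, Ccnd1 and Ccnd3 were thus at like levels in WT, and Ccnd1 was the lower of them in KO. That rests on the deposited lengths of 4709 bases for Ccnd1 and 8775 bases for Ccnd3. By CPM, Ccnd1 was the lower of them in both genotypes.

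The kinases that these cyclins bind were called lower. Cdk4 was at 68.2 ± 1.20 CPM in KO and 75.8 ± 1.69 CPM in WT (-0.15, edgeR adjusted p = 0.00211). Of the Cdk4 exon bases 19.7% also lie in exons of Tspan31 on the opposite strand. Tspan31 had a mean of 4334.2 counts, while Cdk4 had 2314 to 2975. Cdk6 was at 15.05 ± 0.381 CPM in KO and 17.4 ± 1.22 CPM in WT (-0.21, edgeR adjusted p = 0.0141). Cdk6 was no longer called when KO replicate 2 (-0.18, edgeR adjusted p = 0.0575) or WT replicate 3 (-0.15, 0.0746) was left out. With library totals as the scaling Cdk4 was at -0.04 and Cdk6 at -0.09, and neither was called. With the GC and length trend removed both were called, Cdk4 at -0.33 (edgeR adjusted p = 4.71e-07) and Cdk6 at -0.37 (edgeR adjusted p = 1.35e-04).

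E2f1, the transcription factor that activates replication genes, rose. It was at 34.2, 33.0 and 34.0 CPM in KO, against 18.3, 18.3 and 16.0 CPM in WT (0.94, SE 0.0597, edgeR adjusted p = 8.85e-10). Every KO library lay above every WT library, and the mean ratio was 1.92. Cdk2, the kinase of S phase entry, was at 11.01, 9.06 and 10.6 CPM in KO, against 6.25, 6.51 and 6.68 CPM in WT (0.66, SE 0.0925, edgeR adjusted p = 1.04e-05). Ccne2, an E-type cyclin that activates this kinase, was at 0.722, 0.930 and 0.682 CPM in KO, against 1.69, 1.75 and 1.503 CPM in WT (-1.08, SE 0.231, edgeR adjusted p = 6.55e-04), and at -0.61 with the GC and length trend removed (edgeR adjusted p = 0.0373). Ccne1, the other E-type cyclin, was not called (-0.33, SE 0.147, edgeR adjusted p = 0.0636), although it was without KO replicate 3 (-0.45, edgeR adjusted p = 0.0261) or WT replicate 3 (-0.41, 0.0342), and with the trend removed (-0.42, 0.0223). E2f2, an activator like E2f1, and E2f8, a repressor of the E2F family, were not called (-0.35, SE 0.342, and -0.44, SE 0.246), but E2f8 was called with the trend removed (-0.64, edgeR adjusted p = 0.0372).

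Of the inhibitors of cyclin-dependent kinases, 1 fell, 1 rose and 1 was not called. Cdkn1a, which encodes p21, was the most abundant of the 58 genes, at 426 FPKM in KO and 499 FPKM in WT. It was at 1551, 1558 and 1455 CPM in KO, against 1799, 1844 and 1721 CPM in WT (-0.23, SE 0.0314, edgeR adjusted p = 6.45e-06). All KO libraries lay below all WT libraries, and the change was -0.47 with the GC and length trend removed and -0.12 with library totals. Cdkn1b, which encodes p27, was at 22.3, 22.1 and 21.6 CPM in KO, against 20.6, 18.3 and 20.5 CPM in WT (0.15, SE 0.0610, edgeR adjusted p = 0.0406). That call was lost without any 1 of KO replicates 1 to 3 (0.15 to 0.17, edgeR adjusted p = 0.0511 to 0.0890) or without WT replicate 2 (0.10, 0.191). It was also lost with a filter at a mean of 1 CPM (0.13, edgeR adjusted p = 0.0666) and in DESeq2 (0.15, DESeq2 adjusted p = 0.109). With the GC and length trend removed Cdkn1b was called at 0.31 (edgeR adjusted p = 2.61e-04). Cdkn2c, which encodes the CDK4 and CDK6 inhibitor p18, was not called (0.22, SE 0.177).

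**Figure D4:**
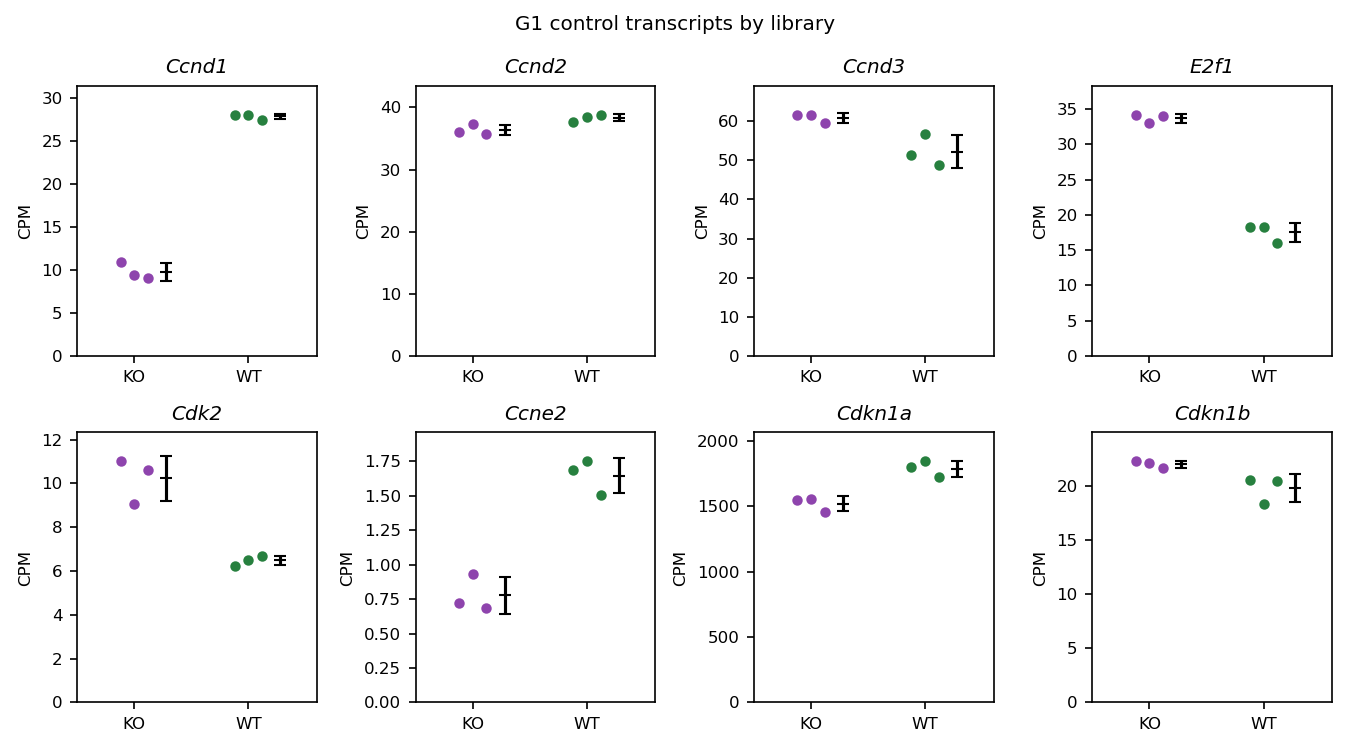
Points are TMM-scaled CPM of single libraries for G1 control genes, KO left and WT right, each with mean and SD (n = 3) beside it; axes start at 0. Ccnd1 lies between 9.02 and 10.9 CPM in KO and between 27.48 and 28.02 CPM in WT, while E2f1 lies higher in all KO libraries.

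Genes of the same processes outside the 58 were counted from lists of textbook members. Of 74 other mitotic genes tested 41 (55.4%) fell and 9 rose, with a median of -0.54, against 29.8% and 31.5% of all tested genes. Of the 74, 8 had passed the filter in every WT but not every KO library, and without them 35 of 66 fell. The kinetochore genes Spc24 and Spc25 fell by 1.30 and 1.40 on the log2 scale. Tubb5, a beta-tubulin gene, rose (0.52, SE 0.0285). Espl1, which encodes separase, was called higher (0.74, SE 0.240), but not with the GC and length trend removed (0.26, edgeR adjusted p = 0.388). Of 46 other replication genes 21 (45.7%) fell and 6 rose, with a median of -0.27, and with the GC and length trend removed 17 fell and 5 rose. Without 2 of them that had passed the filter in every WT but not every KO library, 21 of 44 fell. Pclaf, which encodes a PCNA-binding factor, fell to 3.16 ± 0.192 CPM in KO, against 8.12 ± 0.439 CPM in WT (-1.36, SE 0.107, edgeR adjusted p = 1.21e-08). Dnmt1, the maintenance DNA methyltransferase gene, rose by 0.84 (0.43 with that trend removed), and Pola2, a subunit of DNA polymerase alpha, by 0.48.

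Of 34 other G1 control genes 15 (44.1%) fell and 9 (26.5%) rose, with a median of -0.12, against 29.8% and 31.5% of all tested genes. With the GC and length trend removed 10 fell and 9 rose, and the median turned to 0.05. In the main fit, 13 of 32 fell without the 2 genes that had passed the filter in every WT but not every KO library. Within the retinoblastoma family Rbl1 (p107) fell to 11.6 ± 0.697 CPM in KO, against 24.8 ± 1.87 CPM in WT (-1.10, SE 0.0713), and Rbl2 (p130) rose to 7.61 ± 0.976 CPM in KO, against 3.63 ± 0.314 CPM in WT (1.06, SE 0.121). In the MYC antagonist family Mxd1 fell by 1.17 and Mnt rose by 0.79 (0.45 with the trend removed). Of 26 other genes of p53 and its targets 10 (38.5%) fell and 8 (30.8%) rose, with a median of 0.04. These shares were near those of all tested genes (29.8% lower and 31.5% higher). Without 1 gene that had passed the filter in every WT but not every KO library, 9 of 25 fell. Mdm2, the ubiquitin ligase of p53, fell to 62.8 ± 0.651 CPM in KO, against 97.9 ± 3.17 CPM in WT. The sestrin genes Sesn1 and Sesn2 rose by 1.13 and 1.05. Fas, a death receptor gene, was called at -0.46, but stood at -0.05 once the GC and length trend was removed.

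**Figure D5:**
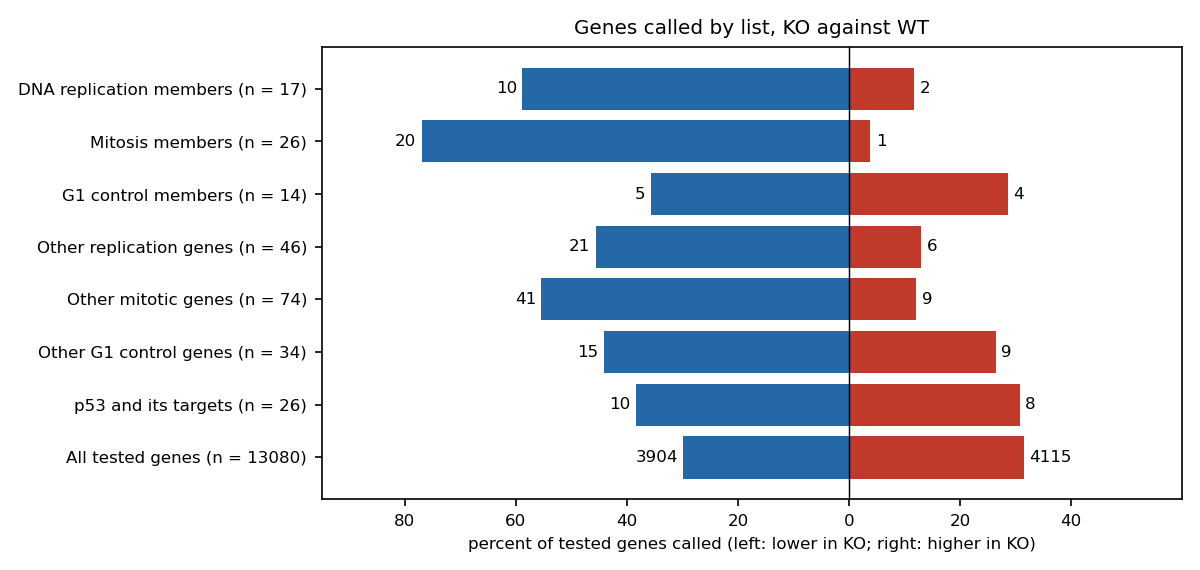
Bars give the percent of tested genes called lower (left, blue) and higher (right, red) in KO for each list, with the number of genes beside each bar and all tested genes at the bottom. Mitosis members have 20 genes called lower and 1 higher, while p53 and its targets have 10 and 8.

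In the authors' deposited table, adjusted p under 0.05 was reached by 18 mitotic genes lower and 1 higher, 9 replication genes lower and 2 higher, and 4 G1 control genes lower and 3 higher in KO. The share of all genes that reached it there is not given here, so these counts have no background beside them. After removal of the GC and length trend 22 mitotic, 12 replication and 9 G1 control genes were called lower, against 28.5% of all tested genes, and 1, 2 and 3 were called higher, against 27.2%. Median GC content was 47.8% for the mitotic, 49.2% for the replication and 51.8% for the G1 control genes, and 49.7% for all tested genes.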

How the data were processed

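RNA was sequenced from 6 libraries, 3 per genotype. The authors deposited 1 table of counts per gene, which are whole numbers and not normalized, and of FPKM per gene, per the file headers. The deposited signal columns are genotype means of normalized counts and were not tested, and the deposited log2 fold change, p-value and adjusted p-value are quoted only as the authors' table. The submitters' processing notes name Bowtie 0.12.2, mm8 and mm10 without saying what each was used for, and the sources used here do not name a read counter. Coordinates are those of the table, and 57 of 58 genes matched GENCODE vM21 (mm10) exactly.

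Counts were tested with edgeR 4.0.16 (R 4.3.3), quasi-likelihood, TMM scaling and the default expression filter, with Benjamini-Hochberg adjustment over 13080 genes. Log2 fold changes are KO over WT, and SE was taken as their size over the square root of the F statistic. On simulated counts 70.9% of 1.5-fold and 76.3% of 2-fold changes were recovered and 4 unchanged genes called, for KO against WT over 12917 genes. The simulation changed 200 genes, far fewer than the 8019 called in the data, so these rates need not hold for the data. Alternatives were DESeq2 1.42.0, other scalings and filters, a replicate block, each library left out, and removal of each library's smooth trend on GC content and gene length (mgcv 1.9.3, longest GENCODE transcript, deposited length). Libraries of a genotype differed by more than sampling noise (chi-square per degree of freedom 2.66 to 5.91).

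Near-identical copies are annotated transcripts of other genes with at least 95% identity over 400 bases (blastn 2.17.0), and 9 of the 58 genes had one. Promoter windows from RefSeq matched 48 of 58 genes. Full values are given for Mki67, Top2a, Pcna, Cdk1, Ccnd1, Ccnd2, Ccnd3, Cdkn1a, Cdkn1b and E2f1, for the 4 called genes of each role with the largest change, and from other lists for the 2 highest and 2 lowest called genes with a mean of at least 1 CPM, of which 1 is not reported here. Other genes are named with single values. The 58 genes and all lists were chosen with earlier results of these data known.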

Additional observations from a re-analysis of the deposited data

How the results depend on the processing

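Of 42 called genes, 33 kept direction and call under every alternative fit in which they were tested, and 35 under all 6 fits that left out a library. Kif11 is among the 33 and was not tested with the filter at a mean of 1 CPM. Only Ccnd3 changed direction as a call, to -0.26 after removal of the GC and length trend and -0.26 with the replicate block as well. Called G1 control genes lower in KO numbered 3 with library totals alone and 9 after removal of that trend, with or without the block, against 5, and the cause was not tested. Without KO replicate 2 the replication genes called higher numbered 1, against 2. Requiring 1.5-fold left 3123 of 8019 called genes, and among those higher in KO 1 replication, 0 mitotic and 2 G1 control genes, with 2 G1 control genes lower, as that rule implies. Leaving out 1 library gave 7387 to 7671 called genes, 18 to 22 mitotic and 9 or 10 replication genes lower, 1 or 2 replication genes higher, 1 mitotic gene higher, and 4 to 6 lower and 3 or 4 higher G1 control genes.

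The replicate block gave 8013 called genes, 21 mitotic and 10 replication genes lower. Same-numbered libraries of the genotypes deviated from their group means with correlations of -0.04, 0.04 and 0.04. Such values cannot show whether the numbers pair samples by animal or day, since paired libraries need not deviate together. DESeq2 called 7075 genes in either direction, and 4 G1 control, 18 mitotic and 9 replication genes lower. Its share of all genes called lower is not given here. Scaling by library totals put the median log2 fold change over all genes at 0.11. Depth limits the low genes: 3 counts equal 0.0682 to 0.0960 CPM, and Pola1, Cenpe, Bub1, Ect2, E2f2 and Cenpf averaged under 1 CPM in both genotypes.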
